A study of Bos taurus with 13 samples.

Results

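EV-coupled miRNAs of follicular fluid were compared between 2 groups of lactating cows that were both in positive energy status when they were sampled. The groups differed in whether a negative energy balance had been recorded at weeks 5 and 6. The Always positive cows (APCs) were sampled at weeks 5 and 6 post-calving and were in positive energy balance at every assessment up to week 10. The Transient cows (TCs) were sampled at weeks 9 and 10, labelled Late positive, after a negative energy balance at weeks 5 and 6. The libraries were chosen by these labels, which gave 2 APC pools from 2 cows and 3 TC pools from 7 cows, 5 of the 13 pools of the series. The miRNAs were those with a value in all 5 libraries, 265 of the 311 that had a value in any library of the series. All animals were female Bos taurus after calving, and each library was made from pooled follicular fluid that had been aspirated through ovum pick-up from large follicles.

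Early lactation draws more energy for milk than a cow takes in, and the fat reserves that are mobilised raise fatty acids and ketone bodies in blood and in the fluid of the growing follicle. The fluid that fills the follicle and surrounds the oocyte holds EVs, membrane-bound particles whose miRNAs are protected from degradation and can be taken up by the cells of the follicle. A mature miRNA guides the silencing complex to messenger RNAs that match its seed, the short stretch near its 5′ end, and lowers their translation and stability. The comparison asks whether EV miRNAs of cows that were in positive energy balance at each assessment differ from those of cows that returned to it.

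The 5 libraries held 284181 to 421435 miRNA reads, so that 3 reads, taken as the smallest visible abundance, stood at 7.04 to 10.7 CPM, the read count scaled to a common library total. The TMM factors, which bring the libraries to one scale, were 0.854 and 0.729 in APCs and lay between 1.09 and 1.24 in TCs. The values of a group describe pools and not cows, and how the cows were divided among the pools is not given in the sources used here. The p-values therefore measure the spread between these pools. Energy history, week of sampling and the individual cows changed together between the groups and cannot be told apart, nor can fewer vesicles of one origin be told apart from less miRNA per vesicle. The RNA of replicate 1 of both groups was measured on one day and that of TC replicates 2 and 3 on another, while no day is given for APC replicate 2, so a part of the day in the results was not tested.

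Of the 265 miRNAs, 229 were abundant enough to be tested and 23 of them were called DE, which is 10% of those tested. The calls required a p-value below 0.05 from limma, a Benjamini-Hochberg adjusted p-value no higher than 0.25 and a log2 fold change of 1 or more in size. Of the tested miRNAs, 19 (8.3%) were higher and 4 (1.75%) were lower in APCs than in TCs at weeks 9 and 10. The miRNAs higher in APCs included miR-320a, miR-423-5p, miR-103, miR-107, miR-23a and miR-23b-3p, all of them among the abundant EV miRNAs, and the rarer miR-874 and miR-502a. The miRNAs lower in APCs were miR-196a, miR-592, miR-3431 and miR-452. The lowest adjusted p-value was 0.0493, which 10 miRNAs shared, all of them higher in APCs. For each of the 23 called miRNAs the pools of the 2 groups did not overlap, beside 68 of all 229 tested (29.7%), of which 36 (15.7%) had both APC pools above and 32 (14%) had both below. An exact two-sided permutation test gave 0.1 for each called miRNA, which is the smallest p-value that the 10 splits of 2 against 3 pools allow.

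The number of calls rested on single pools and on the scaling. Without TC replicate 3, limma called 0 miRNAs, with 20 at an unadjusted p-value under 0.05 and a lowest adjusted p-value of 0.322, and without APC replicate 1 it called 44, of which 32 were higher and 12 lower. The fold change of each of the 23 miRNAs kept its direction in all of these fits. With total reads in place of TMM the median log2 fold change of all tested miRNAs moved from -0.000768 to -0.547, and 14 miRNAs were called higher and 29 lower in APCs. With the values as deposited the median was -0.365, with 15 called higher and 21 lower. Some miRNAs described below as higher in APCs fell under the fold limit in these settings. With total reads these were miR-423-5p (log2 fold change 0.705), miR-26a (0.647), miR-2284x (0.598), miR-151-5p (0.906) and miR-2366 (0.845). With the values as deposited, miR-423-5p, miR-26a and miR-2284x stood at 0.901, 0.844 and 0.794. The directions given below are therefore relative to the typical miRNA of the libraries.

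**Figure D1:**
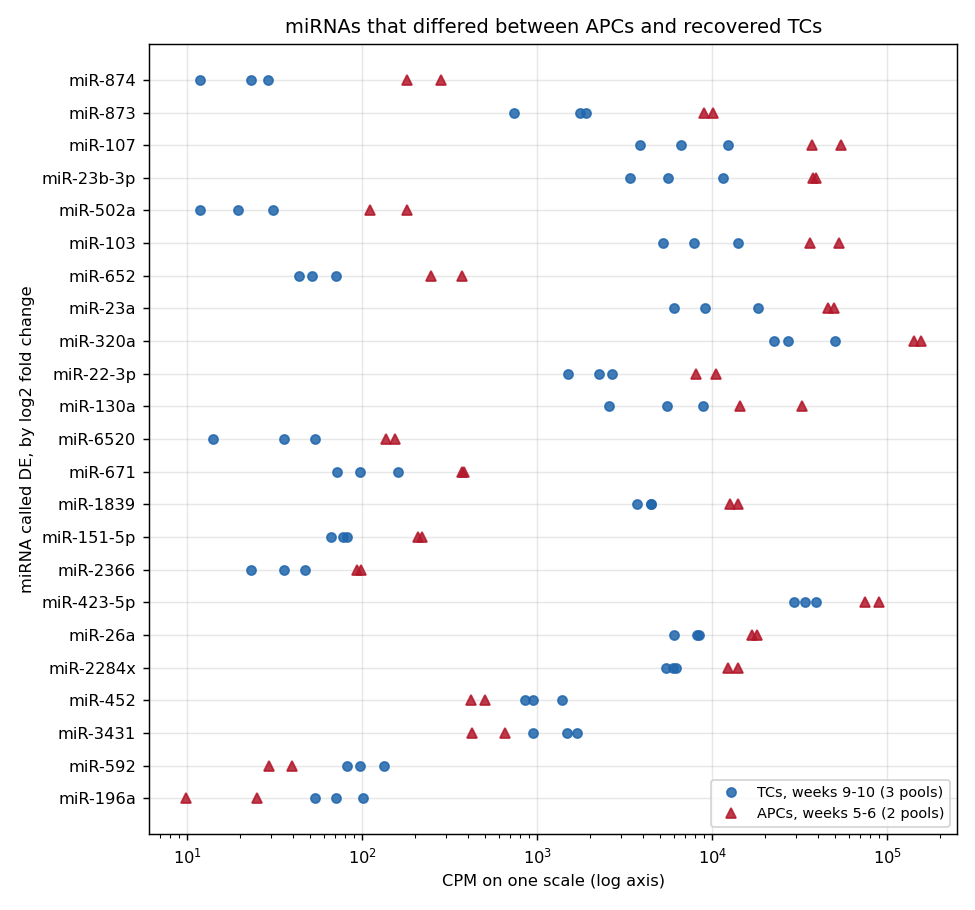
Abundance of the 23 miRNAs called DE in each pool, with CPM on a log axis and 1 point per pool (triangles, the 2 APC pools; circles, the 3 TC pools at weeks 9 and 10), ordered by log2 fold change. Both triangles stand to the right of all circles for 19 miRNAs and to the left for 4, with the widest relative gap for miR-874.

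The called miRNA with the highest abundance was miR-320a, which matures without the nuclear Drosha step that most miRNAs need. It stood at 141290 and 154860 CPM in APC replicates 1 and 2 and at 22605, 50161 and 27026 CPM in TC replicates 1, 2 and 3. The mean was 148080 ± 9595 CPM (SD, n = 2) in APCs and 33264 ± 14800 CPM (SD, n = 3) in TCs, a ratio of 4.45. The log2 fold change on the log2(CPM + 5) scale was 2.24 (standard error, SE, 0.41; limma adjusted p = 0.0493). Both APC pools were above every TC pool, and TC replicate 2 was the highest of the TC pools. The hairpin of miR-320a has 2 copies in the bovine annotation, whose shares of the reads are unknown.

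miR-423-5p followed in abundance, with 89287 and 74389 CPM in the APC pools against 33838, 38887 and 29061 CPM in the TC pools. Its log2 fold change was 1.27 (SE 0.30, adjusted p = 0.0952), and its values were close together within each group. miR-1839, from the list of miRNAs with non-canonical processing, stood at 13916 and 12611 CPM in APCs and at 3688, 4453 and 4454 CPM in TCs. Its log2 fold change was 1.66 (SE 0.31, adjusted p = 0.0493), and TC replicates 2 and 3 had almost the same value.

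miR-103 and miR-107 lie within introns of the pantothenate kinase genes PANK2, PANK3 and PANK1, whose enzymes start coenzyme A synthesis, and both miRNAs are known to dampen insulin signalling in liver and fat. The value of miR-107 was 36959 and 53972 CPM in the APC pools and 3852, 12205 and 6609 CPM in the TC pools. Its log2 fold change was 2.72 (SE 0.53, adjusted p = 0.0493). miR-103 stood at 36215 and 53119 CPM in APCs and at 5245, 13990 and 7845 CPM in TCs, with a log2 fold change of 2.40 (SE 0.48, adjusted p = 0.0493). Pool by pool, the 2 miRNAs took the same order, with APC replicate 2 highest and TC replicate 1 lowest. Their sequences are nearly identical, so the annotation could have moved reads from one to the other, and their values are not independent of each other.

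miR-23a and miR-23b-3p are also nearly identical in sequence and are made from separate clusters, each with a member of the miR-27 and miR-24 families. They are known repressors of glutaminase, the enzyme that opens glutamine to energy metabolism. miR-23b-3p had 37574 and 39072 CPM in the APC pools and 3402, 11558 and 5608 CPM in the TC pools, with a log2 fold change of 2.66 (SE 0.54, adjusted p = 0.0493). miR-23a had 45621 and 49808 CPM in APCs and 5993, 18166 and 9097 CPM in TCs, with a log2 fold change of 2.26 (SE 0.50, adjusted p = 0.0740). The other cluster members were not called. The log2 fold change was 1.02 for miR-27a-3p (SE 0.60), 0.26 for miR-24-3p (SE 0.55) and -0.50 for miR-27b (SE 0.35).

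miR-873 and miR-22-3p formed a level below these. miR-873, a member of the list of gonadal and follicular miRNAs, lies within LINGO2 and stood at 8963 and 10042 CPM in the APC pools and at 737, 1891 and 1748 CPM in the TC pools. It had the second largest change, with a log2 fold change of 2.81 (SE 0.49, adjusted p = 0.0493). miR-22-3p, a conserved miRNA of many tissues, stood at 8083 and 10495 CPM in APCs and at 1488, 2674 and 2240 CPM in TCs. The log2 fold change reached 2.15 (SE 0.39, adjusted p = 0.0493), and the lower APC pool was above all 3 TC pools for both miRNAs.

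miR-130a, a repressor of the adipogenic receptor PPARG, had the largest standard error of the called miRNAs. It stood at 14324 and 32579 CPM in APC replicates 1 and 2 and at 2575, 8851 and 5477 CPM in the TC pools, with a log2 fold change of 2.11 (SE 0.62, adjusted p = 0.160). APC replicate 1 was closer to TC replicate 2 than to the other APC pool. miR-26a, which targets the histone methyltransferase EZH2 and lies within CTDSP2 and CTDSPL, stood at 16727 and 17988 CPM in APCs and at 8181, 8387 and 6051 CPM in TCs. The difference on the log2 scale was 1.22 (SE 0.32, adjusted p = 0.115). miR-2284x belongs to a large ruminant family of near-identical members, among which reads could have been split. It had 12299 and 14031 CPM in APCs and 5456, 6167 and 5943 CPM in TCs, with a log2 fold change of 1.17 (SE 0.30, adjusted p = 0.115).

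The largest change of all was that of miR-874, at low abundance. This miRNA lies within KLHL3 and had 50 and 86 reads in the APC pools and 5, 9 and 9 in the TC pools, which were 179 and 280 CPM against 11.7, 29.0 and 23.0 CPM. Its log2 fold change was 3.18 (SE 0.51, adjusted p = 0.0493), on a scale that understates the change of low miRNAs. The TC pools stood near the level of 3 reads, so the size of the fold rests on few reads. miR-502a, from the X-linked CLCN5 cluster, stood at 111 and 179 CPM in APCs and at 11.7, 19.3 and 30.7 CPM in TCs, with a log2 fold change of 2.58 (SE 0.52, adjusted p = 0.0493). miR-652 had 372 and 247 CPM in APCs and 70.4, 51.6 and 43.5 CPM in TCs, with a log2 fold change of 2.38 (SE 0.43, adjusted p = 0.0493). For these 3 miRNAs the groups did not overlap either.

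The remaining 4 miRNAs higher in APCs had adjusted p-values between 0.115 and 0.232. miR-6520 had 154 and 137 CPM in the APC pools and 14.1, 35.4 and 53.8 CPM in the TC pools, with a log2 fold change of 2.07 (adjusted p = 0.139). miR-671, within the chondroitin polymerising factor gene CHPF2, had 368 and 381 CPM against 160, 96.7 and 71.7 CPM, with a log2 fold change of 1.80 (adjusted p = 0.115). Its APC pools were nearly equal, while its TC pools spread over a wider range. miR-151-5p, within the focal adhesion kinase gene PTK2, had 218 and 208 CPM against 65.7, 77.3 and 81.9 CPM, with a log2 fold change of 1.45 (adjusted p = 0.115). miR-2366 had 93.0 and 97.7 CPM against 47.0, 35.4 and 23.0 CPM, with a log2 fold change of 1.37 (adjusted p = 0.232), and it was called in 6 of 16 alternatives, the fewest of the 23 miRNAs.

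Of the 4 miRNAs that were lower in APCs, 2 are members of a single cluster. miR-452 and miR-3431 lie within GABRE, a GABA receptor subunit gene, together with miR-224, which is known to act in the TGF-beta pathway of granulosa cells. miR-3431 stood at 651 and 420 CPM in the APC pools and at 1679, 938 and 1474 CPM in the TC pools, with a log2 fold change of -1.33 (SE 0.42, adjusted p = 0.199). miR-452 stood at 501 and 417 CPM in APCs and at 946, 844 and 1385 CPM in TCs, with a log2 fold change of -1.17 (SE 0.38, adjusted p = 0.213). miR-224 was not called, with 1527 and 983 CPM in APCs and 2568, 1624 and 2421 CPM in TCs and a log2 fold change of -0.82 (adjusted p = 0.508). Its APC pools also stood below all TC pools, which was the case for 32 of all 229 tested miRNAs (14%).

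miR-196a, which is encoded in the HOX clusters and cleaves HOX messenger RNAs, had the largest fall. It had 7 and 3 reads in the APC pools and 43, 22 and 21 in the TC pools, which were 25.04 and 9.77 CPM against 101, 70.9 and 53.8 CPM. The log2 fold change was -1.89 (SE 0.53, adjusted p = 0.139), and APC replicate 2 stood at the level of 3 reads. miR-196b of the same family was not called, at 25.04 and 19.5 CPM against 47.0, 54.8 and 46.1 CPM and a log2 fold change of -0.996 (adjusted p = 0.453). miR-592, within the glutamate receptor gene GRM8, had 39.3 and 29.3 CPM in APCs and 82.2, 132.1 and 97.3 CPM in TCs, with a log2 fold change of -1.46 (SE 0.43, adjusted p = 0.162). Without TC replicate 1, 1 miRNA was called lower in place of 4.

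A further 4 miRNAs had an unadjusted p-value under 0.05 and were not called, all of them higher in APCs. miR-1246 had the largest difference among them, with 30336 and 37310 CPM in the APC pools and 1350, 15437 and 10806 CPM in the TC pools. Its log2 fold change was 2.46 with a standard error of 1.01 (adjusted p = 0.413), since TC replicate 1 lay far below the other TC pools. miR-92b had a log2 fold change of 1.39 (adjusted p = 0.413). miR-361 and miR-7857 stayed below the fold limit, at 0.95 and 0.98.

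**Figure D2:**
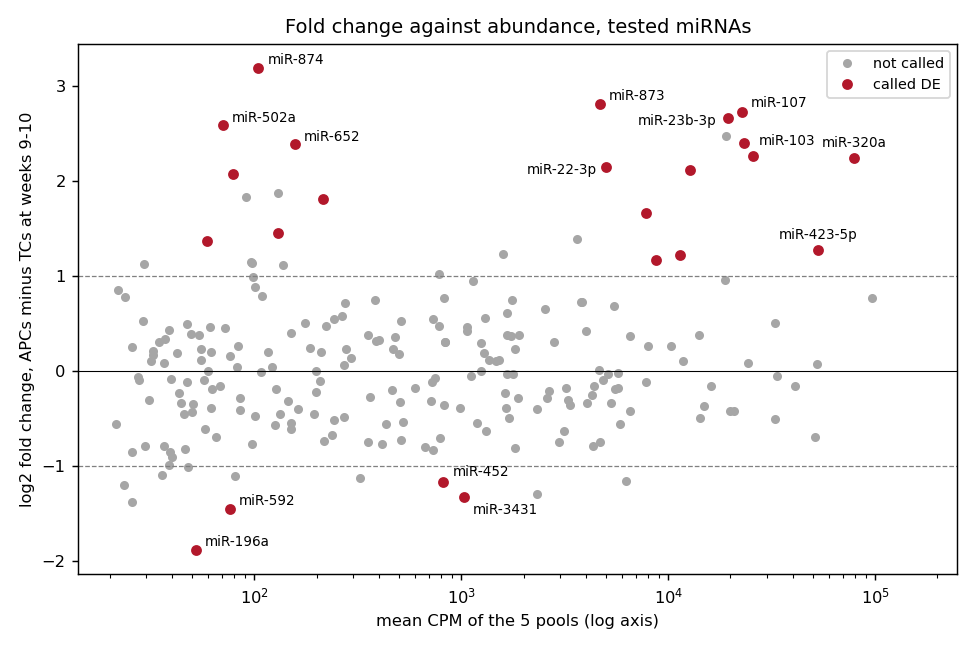
Log2 fold change (APCs minus TCs at weeks 9 and 10) of the 229 tested miRNAs against the mean CPM of the 5 pools on a log axis, with the 23 called miRNAs in red and dashed lines at log2 fold changes of 1 and -1. The called miRNAs higher in APCs lie at both ends of the abundance range, while the 4 lower ones lie in its lower and middle part.

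Calls were found at high and at low abundance, 23 among the 229 tested miRNAs (10%), and their share was larger among the most abundant miRNAs. Of the 26 tested miRNAs with a mean of at least 10000 CPM, 8 were called, and of the 92 with at least 1000 CPM, 13 were called, all but 1 of which, miR-3431, were higher in APCs. The remaining 10 called miRNAs were below 1000 CPM. The most abundant miRNA of the 5 pools, miR-21-5p, which is known to protect granulosa cells from apoptosis, was not called. It stood at 68675 and 186580 CPM in the APC pools and at 44804, 129700 and 50745 CPM in the TC pools, with a log2 fold change of 0.77 (SE 0.63), and the groups overlapped. Of the 10 most abundant miRNAs, miR-320a, miR-423-5p and miR-23a were called. The other 7 were miR-21-5p, let-7b, miR-16b, miR-92a, let-7a-5p, miR-25 and miR-143, with log2 fold changes between -0.70 for miR-16b and 0.77 for miR-21-5p.

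The 19 miRNAs higher in APCs held 39.5% (95% Wilson interval 39.4 to 39.7) and 38.2% (38.1 to 38.4) of the reads in the APC pools. In the TC pools they held 11.6% (11.5 to 11.7), 19.4% (19.3 to 19.6) and 13.8% (13.7 to 13.9). The miRNAs were chosen for this difference, so these shares describe its size and are no test, and the intervals cover counting error only. The 4 miRNAs lower in APCs held 0.104% and 0.0638% of the reads in APCs and 0.334%, 0.217% and 0.372% in TCs.

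The other 8 pools of the series, which took no part in the choice, were placed beside these shares. Over the 262 miRNAs with a value in all 13 libraries, the same 19 miRNAs held a mean of 38.9% of the reads in APCs and 14.9% ± 4.04 (SD, n = 3) in TCs at weeks 9 and 10. In TCs at weeks 5 and 6, labelled Early negative, they held 28.1%, 14.4% and 44.3% in replicates 1, 2 and 3. The share was 18.7% and 32.1% in the Always negative cows (ANCs), also sampled at weeks 5 and 6. The heifer pools gave 13.03%, 8.92% and 20.4%. Replicate 3 of the TCs at weeks 5 and 6 was thus above both APC pools, and replicate 2 of that group was within the range of the TCs at weeks 9 and 10.

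**Figure D3:**
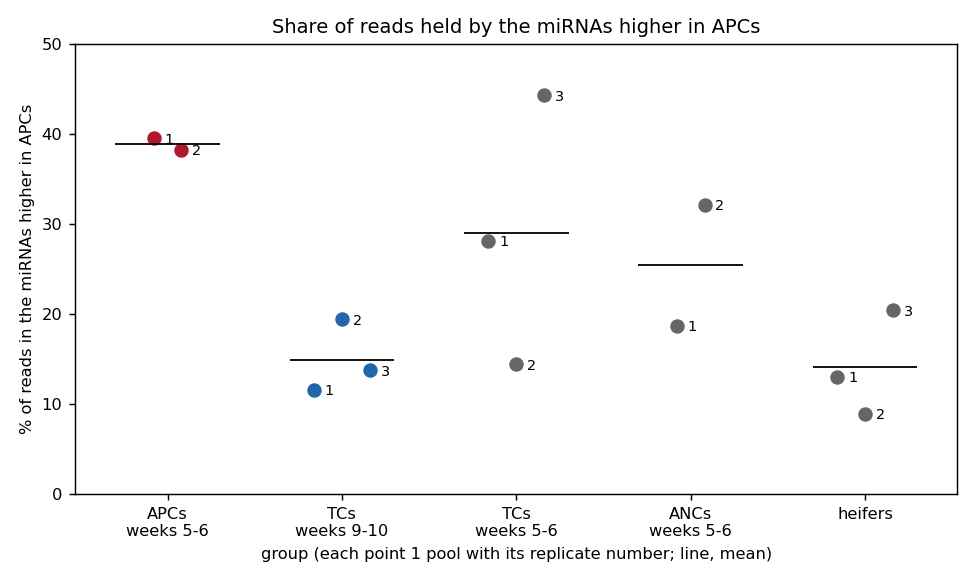
Percent of miRNA reads held by the 19 miRNAs higher in APCs, in each of the 13 pools by group (points with replicate numbers; lines, group means), over the 262 miRNAs with a value in every library. The APC pools stand at 39.5% and 38.2% and the TC pools at weeks 9 and 10 at 11.6% to 19.4%, while the TCs at weeks 5 and 6 range from 14.4% to 44.3%.

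Single miRNAs were also placed among these pools. Replicate 3 of the TCs at weeks 5 and 6 reached the lower APC pool for 16 of the 19 miRNAs, ANC replicate 2 did so for 1, and the other 6 pools for 0. Heifer replicates 1 and 2 were at or below the highest TC pool of weeks 9 and 10 for 16 and 17 of the 19 miRNAs. For 7 of the 19, the range of the 3 TC pools at weeks 5 and 6 was wider than the log2 fold change between APCs and TCs at weeks 9 and 10. miR-107, on the scale of all 13 pools, had 22900, 7405 and 63900 CPM in the TCs at weeks 5 and 6, 6327 and 24400 CPM in ANCs, and 8436, 6019 and 15750 CPM in heifers. Its highest value of all pools was therefore found in a group of negative energy status. Both APC pools were above all 11 other pools for 3 of the 23 called miRNAs, miR-423-5p, miR-502a and miR-6520, and below all of them for 1, miR-196a. Over all 262 miRNAs this was the case for 4 and 3. The others were miR-1246 above, and miR-196b and miR-31 below.

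Ratios between miRNAs of one hairpin or one cluster were compared because they do not depend on how libraries are scaled. The ratio of miR-423-5p to miR-423-3p, the 2 arms of one hairpin, was 4.66 and 4.88 on the log2 scale in the APC pools and 2.48, 3.18 and 2.44 in the TC pools. The difference was 2.07. miR-423-3p itself had a log2 fold change of -0.79 (adjusted p = 0.480), opposite to that of the called arm. The log2 ratio of miR-151-5p to miR-151-3p was -3.93 and -3.52 in APCs and -5.90, -5.14 and -5.56 in TCs, a difference of 1.81. For miR-22-3p to miR-22-5p the difference was 1.33, again with no overlap of the pools. Of the 14 hairpins with both arms among the tested miRNAs, these 3 and miR-2284t, 4 in all, had ratios that did not overlap between the groups, and the median absolute difference was 0.291. One arm of each of these 3 hairpins was called, so the pairs were chosen with the contrast in view and these ratios are a description.

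Of the 88 pairs of tested miRNAs from different hairpins that lie within 10000 bases of each other, 18 (20.5%) had ratios that did not overlap between the groups, and the median absolute difference was 0.379. The pairs given next hold a called miRNA, so their ratios too are a description. The log2 ratio of miR-23b-3p to miR-27b was 1.63 and 1.92 in the APC pools and -1.93, -0.31 and -1.93 in the TC pools, so that miR-23b-3p exceeded its neighbour in both APC pools and in none of the TC pools. The difference was 3.16. miR-23a exceeded miR-27a-3p in all 5 pools, with a difference of 1.23 between the groups. miR-24-3p is made from both clusters, and the log2 ratio to it differed by 2.41 for miR-23b-3p and by 2.00 for miR-23a. miR-502a against its neighbours miR-532 and miR-660 gave differences of 3.16 and 3.03. In the GABRE cluster the ratios moved less. miR-3431 against miR-452 differed by -0.16 and miR-452 against miR-224 by -0.36, both with overlapping pools, and miR-3431 against miR-224 by -0.52 without overlap.

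**Figure D4:**
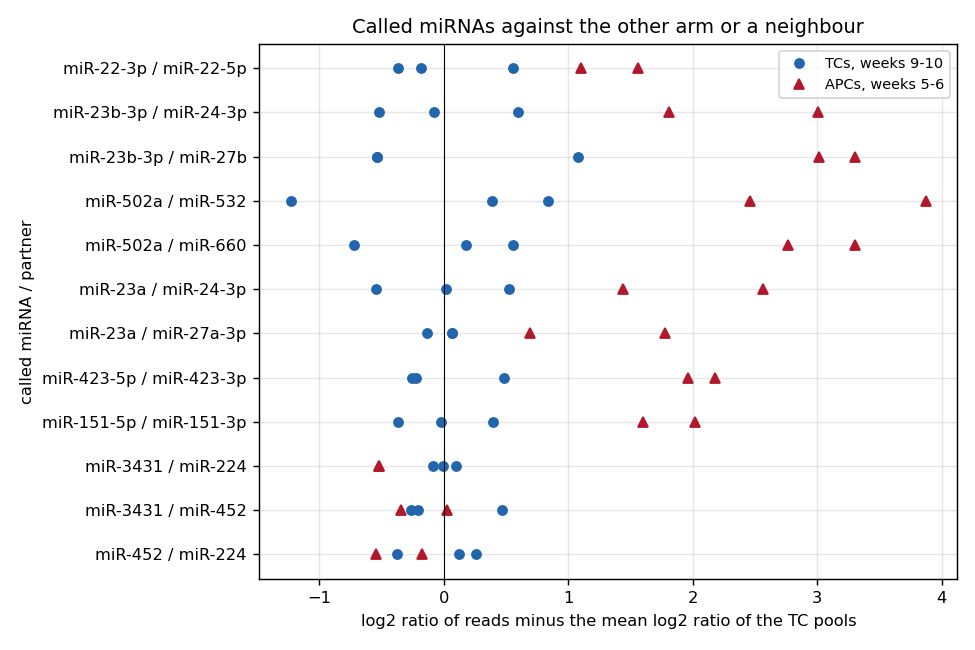
Log2 ratio of reads between each called miRNA and the other arm of its hairpin or a neighbour in its cluster, minus the mean of the TC pools at weeks 9 and 10 (triangles, the 2 APC pools; circles, the 3 TC pools; some points coincide). The upper 9 ratios were higher in both APC pools, by 1.23 to 3.16, while the 3 ratios within the GABRE cluster differed by 0.52 or less.

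The called miRNAs were looked up by name in the RefSeq annotation of the bovine genome. All 23 matched a hairpin, and 22 had a hairpin copy within the span of a protein-coding gene on either strand. The exception was miR-130a, and the count over the 229 tested miRNAs was 138 (60.3%). Apart from miR-452 and miR-3431 in GABRE, no such gene was shared among the called miRNAs.

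Lists of related miRNAs were described by their counts, beside the 114 tested miRNAs that were higher and the 115 that were lower in APCs, with a median log2 fold change of -0.000768. The lists were chosen with earlier results of these data known, so their counts and medians are a description and no test. In the list of miRNAs with non-canonical processing, 3 of 7 tested members were called higher, miR-320a, miR-1839 and miR-6520, beside the 8.3% of all tested. The median of the list was 1.66, and 6 members were higher and 1 lower. The exception was miR-484, with a log2 fold change of -0.74. With total reads as the scale, 5 members were higher and 2 lower.

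Of 9 tested members of the list of insulin and lipid miRNAs, miR-103 and miR-107 were called higher and none lower. Of all tested miRNAs, 8.3% were called higher and 1.75% lower. The other 7 members of the list had log2 fold changes between -0.86 for miR-378b and 0.30 for miR-29b. The list median was 0.23, and with total reads 7 of the 9 members stood lower in APCs. In the list of gonadal and follicular miRNAs, 13 were tested, miR-873 was called higher and miR-592 lower. Of all tested miRNAs, 10% were called in either direction. miR-202, a gonadal miRNA, stood at 5501 and 2908 CPM in APCs and at 4747, 3583 and 5260 CPM in TCs, with a log2 fold change of -0.16. miR-335 and miR-424-5p, which belong to the same list, had log2 fold changes of 0.10 and 0.47. With total reads the list turned from 9 higher and 4 lower to 3 higher and 10 lower.

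**Figure D5:**
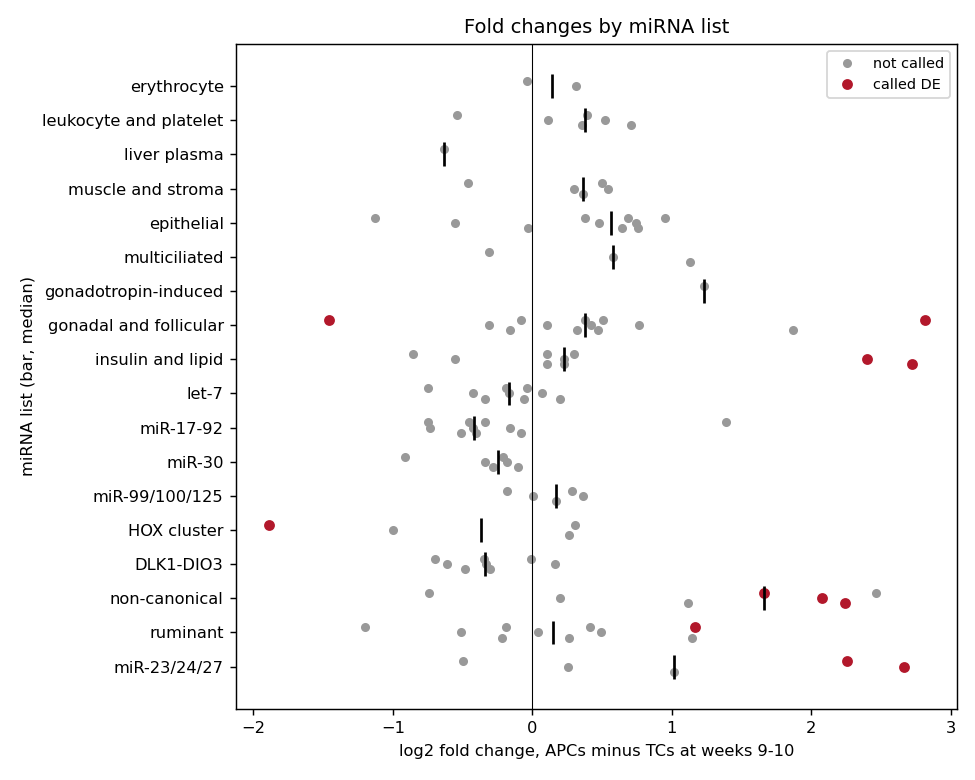
Log2 fold change (APCs minus TCs at weeks 9 and 10) of the tested members of each miRNA list, 1 point per miRNA, called miRNAs in red, with a bar at the list median. The medians of the list of non-canonical miRNAs and of the miR-23, miR-24 and miR-27 families stood at 1.66 and 1.02, while the let-7, miR-17-92 and miR-30 medians stood between -0.42 and -0.17.

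The let-7 family, whose members restrain proliferation in differentiated cells, had 0 calls among 9 tested members by limma and 0 by edgeR's quasi-likelihood test. In limma 0 members had an unadjusted p-value under 0.05. Of all 229 tested miRNAs 23 (10%) were called, so few or no calls in a list this short say little about its members. The most abundant let-7 member, let-7b, stood at 55711 and 49853 CPM in APCs and at 72993, 40537 and 43030 CPM in TCs, with a log2 fold change of 0.07 and a 95% interval of -0.82 to 0.95. The miR-17-92 family and its paralogs, which promote proliferation, had 9 of 10 members lower in APCs and none called, with a median of -0.42, miR-92b being the exception. miR-25 stood below all TC pools in both APC pools, at 28597 and 23852 CPM in APCs and at 37967, 33787 and 40031 CPM in TCs (log2 fold change -0.51, adjusted p = 0.570). The same held for 32 of all 229 tested miRNAs (14%). All 6 members of the miR-30 family were lower, with log2 fold changes between -0.91 for miR-30b-5p and -0.10. The family median was -0.25, and none was called. In the imprinted DLK1-DIO3 cluster 7 of 8 tested members were lower, with a median of -0.34 and none called. The medians of these 3 lists were also below 0 with total reads and with the values as deposited, as was the median of all miRNAs. The 5 tested members of the miR-99, miR-100 and miR-125 families had a median of 0.17 with none called, and 4 of them stood higher in APCs, against 0 of 5 with total reads. Of 10 tested members of the ruminant miR-2284 and miR-2285 families, 6 stood higher and 4 lower, against 2 higher and 8 lower with total reads. Only miR-2284x was called, a share no larger than the 10% of all tested. The 4 HOX cluster miRNAs divided into miR-196a and miR-196b, which stood lower in APCs, and miR-10a and miR-10b, which had log2 fold changes of 0.31 and 0.26 and were below 0 with total reads.

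Markers of cells other than those of the follicle wall were compared pool by pool, and their part in the called differences was not tested. The erythrocyte miRNAs miR-451 and miR-486 summed to 9313 and 2084 CPM in the APC pools and to 2341, 9850 and 3803 CPM in the TC pools, so that 1 pool of each group stood high. The 7 leukocyte and platelet miRNAs with a value, miR-223 and miR-150 among them, summed to 2582 and 4096 CPM in APCs and to 3611, 4640 and 1669 CPM in TCs. The liver miRNA miR-122 stood at 658 and 5712 CPM in APCs and at 2589, 2584 and 4080 CPM in TCs. None of the members of these lists was called, and each member overlapped between the groups. Of all tested miRNAs, 10% were called and 29.7% did not overlap. No member of these lists was at 0 in any of the 5 pools.

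The 10 epithelial miRNAs, led by miR-200a and miR-375, summed to 7807 and 44750 CPM in the APC pools and to 9087, 23340 and 12630 CPM in the TC pools. APC replicate 2 was above and replicate 1 below all TC pools. In the list named for multiciliated cells, miR-34a stood at 519 and 742 CPM in APCs and at 732, 748 and 842 CPM in TCs, with a log2 fold change of -0.31. miR-34c stood at 46.5 and 830 CPM in APCs and at 129, 255 and 71.7 CPM in TCs. miR-449a stood at 21.5 and 316 CPM against 63.4, 80.6 and 7.68 CPM, and none of these 3 miRNAs was called. The 5 miRNAs of muscle and stroma summed to 46160 and 38520 CPM in APCs and to 28710, 33370 and 27320 CPM in TCs. Of them, 4 stood higher in APCs and 1, miR-133a, lower (log2 fold change -0.46), and none was called. The APC pools were above all TC pools for miR-1 and for miR-143, which made up most of the sum at 44688 and 34920 CPM against 27507, 31129 and 25516 CPM (log2 fold change 0.50, adjusted p = 0.575). Of all 229 tested miRNAs, 36 (15.7%) had both APC pools above and 23 (10%) were called. With total reads all 5 members of the list of muscle and stroma were lower in APCs.

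miR-132, which luteinising hormone induces in granulosa cells, separated pools within both groups. It stood at 5079 CPM in APC replicate 1 and 91.2 CPM in replicate 2, and at 2557, 139 and 66.5 CPM in TC replicates 1, 2 and 3. Replicate 1 was the highest pool in each group, and the log2 fold change of 1.23 had a standard error of 2.05. The APC pools were in general no more alike than pools of different groups. Across the 229 tested miRNAs, Pearson's r of log2 values was 0.931 between the APC pools, 0.932 to 0.964 among the TC pools and 0.885 to 0.954 between pools of different groups. miRNAs are not independent replicates, and these values describe the libraries.

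For most miRNAs the 5 pools could not show whether the groups were alike. The absolute log2 fold change was under 1 for 188 of the 229 tested miRNAs (82.1%) and under 0.5 for 129. The median standard error was 0.492, however, and the 95% interval reached 1.19 to either side of the estimate in the median. The interval lay within log2 fold changes of -1 and 1 for 13 miRNAs (5.68%). Ordered by the bound farther from 0, the closest to 0 was miR-125b, with 4242 and 5106 CPM in APCs and 4799, 4914 and 4205 CPM in TCs and an interval of -0.75 to 0.76. It was followed by let-7d (-0.84 to 0.76), miR-128 (-0.86 to 0.62), let-7a-5p (-0.86 to 0.74) and miR-15b (-0.90 to 0.83). The 36 miRNAs that were not tested reached at most 75.1 CPM in any pool.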

How the data were processed

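EV small RNA libraries had been prepared by the authors with the QIAseq miRNA kit. Per the labels and the study's methods, adaptors were trimmed (Cutadapt 1.11), reads were mapped with Bowtie2 2.2.2 (UMD3.1; 1 mismatch allowed within 32 bases) and annotated against miRBase release 20. The deposited values are TMM-normalized CPM, computed by the authors with edgeR. Where a library's total exceeded what CPM can sum to, the deposited column was recorded as a signal.

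Here, whole reads were recovered from the spacing of low values (3681 of 3681 within 0.1 read), and the 5 libraries were scaled together with TMM (edgeR 4.0.16) over the 265 miRNAs. filterByExpr (minimum count 10, total 15) left 229, which were compared with limma 3.58.1 (trend) on log2(CPM + 5), fitted without covariates, and with exact permutation tests. Read recovery and the limma calls were each tested on simulated data. All reads were recovered in 20 of 20 simulated libraries. The simulation of the calls gave every miRNA the same fixed spread between pools, so it does not show how calls hold under the spread of these pools. The lists, the members and the rule for named miRNAs were chosen with earlier results of these data known. The rule covered all called miRNAs, the largest changes at an unadjusted p-value under 0.05, the 10 most abundant, list members, miRNAs that the study names for other comparisons, and the 5 intervals whose farther bound was closest to 0. Partner arms and neighbours were added after their values were seen. Alternatives covered the pseudocount, filter, scaling, test, samples, block, thresholds and each pool left out in turn. Host genes and neighbours were found from the positions of RefSeq genes and hairpins, with strand not compared. That annotation is on a genome build other than that of the mapping, and no sequences were used.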

Additional observations from a re-analysis of the deposited data

Results flagged for a closer look

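A value in the libraries of only 1 group was found for 8 miRNAs in APCs and 17 in TCs at weeks 9 and 10. They were in no comparison. Those with more than 3 reads in every pool of their group, 7 and 1 of them, are given here. The fewest reads in an APC pool were 5 for miR-1291, 5 for miR-135a, 8 for miR-21-3p, 4 for miR-2284h-5p, 9 for miR-2285z, 9 for miR-331-5p and 8 for miR-362-3p, all above the level of 3 reads. The fewest in a TC pool at weeks 9 and 10 were 4 for let-7a-3p. Their levels in the other group were not analysed here, so no difference can be read from these values.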

How the results depend on the processing

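The 23 called miRNAs kept their direction in each alternative that tested them, and edgeR's quasi-likelihood test called the same 23. Counts moved by more than 1.5 times in the following settings. Total reads gave 43 calls with 29 lower, and the values as deposited gave 36 with 21 lower, of which 18 and 19 were shared with the 23. An adjusted p-value of at most 0.05 left 10 calls, 10 higher and 0 lower. At least 10 reads in every pool, a filter that removes low miRNAs from the test, left 1 lower. Leaving out each pool in turn gave 0 to 44 calls, 0 to 32 higher and 0 to 12 lower, where a lone APC pool is assumed to vary like the TC pools. The cause was not tested. The number of miRNAs with an interval within -1 and 1 was 13, and became 21 with a pseudocount of 20 CPM, 2 with total reads, 8 with the values as deposited, 21 with the spread of all 13 pools, and 0 to 3 with a pool left out. A replicate block gave 28 calls, 22 higher and 6 lower, 21 of them shared, and 52 such intervals. The numbers pair only 2 pools of each group, whose deviations correlated at 0.504 and 0.495, and TC replicate 3 drops out of the blocked contrast. With 2 APC pools the deviations of one are the negative of those of the other, so these correlations are not independent of each other. Low read numbers limit miR-874, miR-502a and miR-196a most.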
